A study of Mus musculus with 12 samples.

Results

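The genes described here are 29 enzymes, regulators and carriers of sterol and fatty acid synthesis, taken by symbol from a fixed list, and all 29 were found among the 23472 genes of the table (Sc4mol is the older name of Msmo1). They comprised 18 sterol enzymes, 4 sterol regulators and carriers, and 7 fatty acid synthesis genes. Bulk RNA sequencing covered 12 libraries in 4 groups of 3. F-SEC and F-HSC were the sinusoidal endothelial and the hepatic stellate cell fractions of fibrotic livers, from male C57BL/6 mice injected intraperitoneally with carbon tetrachloride (CCl4), a hepatotoxin that scars the liver when given repeatedly. The dose was 0.6 µl per g body weight, diluted to 15% in olive oil, given 2 times a week for 6 weeks. Q-SEC and Q-HSC were the same fractions from mice given olive oil. All mice were 12 to 14 weeks old by the labels and carried no transgene that the labels name. Both fractions came from collagenase-digested liver after slow spins to remove hepatocytes and a density gradient, with magnetic beads used for the SEC fraction alone. The HSC fraction is thus defined by density alone, and the SEC fraction by density and binding to the beads.

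Gene counts summed to between 8714228 and 13068564 per library. All 29 genes passed the filter on low counts and were among the 14489 genes tested. Levels are given as CPM, with library sizes adjusted by TMM, and 3 counts stood for 0.229 to 0.335 CPM. Changes are log2 fold changes ± SE between groups of 3 libraries, and a gene is called at an edgeR quasi-likelihood adjusted p under 0.05 over all tested genes. The SE was derived from the fold change and the quasi-likelihood F statistic. That statistic takes its spread from all 12 libraries and shares information between genes. Separate mice are not named in the labels for the libraries of 1 group, so each p-value rests on a spread between libraries that may be technical. The 12 sinusoidal endothelial markers summed to 10080 to 13960 CPM in F-SEC against 2780 to 5346 CPM in F-HSC, and to 28740 to 33190 CPM in Q-SEC against 10360 to 13550 CPM in Q-HSC. The 12 stellate markers went against the labels in fibrotic liver, at 4360 to 7730 CPM in F-SEC and 2138 to 3503 CPM in F-HSC. In control liver they reached 4444 CPM in Q-SEC.1 and 295 to 412 CPM in the other Q-SEC libraries, against 5524 CPM in Q-HSC.1 and 1081 to 1429 CPM in the other Q-HSC libraries. The fractions are therefore called SEC and HSC by their labels alone. The HSC libraries also held transcripts of endothelium, macrophages and hepatocytes, and F-SEC held transcripts of stellate cells.

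Cholesterol is built from acetyl-CoA. The mevalonate arm makes isoprenoid units and joins them into farnesyl diphosphate, and a second run of enzymes turns that into squalene, lanosterol and cholesterol. Fatty acids are built from the same acetyl-CoA by carboxylation, chain assembly, elongation and desaturation. The membrane-bound transcription factors SREBP-1 and SREBP-2, encoded by Srebf1 and Srebf2, switch on these genes when membrane sterol is low, and INSIG proteins hold them back in the endoplasmic reticulum when sterol is plentiful. The hepatocyte is the main site of both pathways in the liver.

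The 29 genes were highest in F-HSC for 25 and lowest in F-SEC for 18 when ordered by group mean CPM. The shares of all tested genes with these orders were not counted. Every F-HSC library exceeded all 9 other libraries in 8 of the 29 genes, against 7.19% of all tested genes. Sterol enzymes are given first. Their CPM summed to 612, 977 and 1140 in F-HSC, against 398, 635 and 442 in Q-HSC, and to 295, 353 and 309 in F-SEC, against 321, 443 and 386 in Q-SEC. In the HSC fraction the F-HSC sums thus overlapped the Q-HSC range only through F-HSC.1, and all 6 SEC libraries lay below the 3 F-HSC libraries. Fatty acid synthesis genes summed to 1180, 1571 and 1093 CPM in F-HSC, against 710, 735 and 786 CPM in Q-HSC. In the SEC fraction they summed to 578, 656 and 641 CPM in F-SEC, against 426, 480 and 414 CPM in Q-SEC. For fatty acid synthesis the CCl4 libraries lay above the control libraries in both fractions, with no overlap. The exceptions to the order by group mean were Mvd and Acly, highest in Q-HSC, Stard4, highest in Q-SEC, and Scd2, highest in F-SEC.

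**Figure D1:**
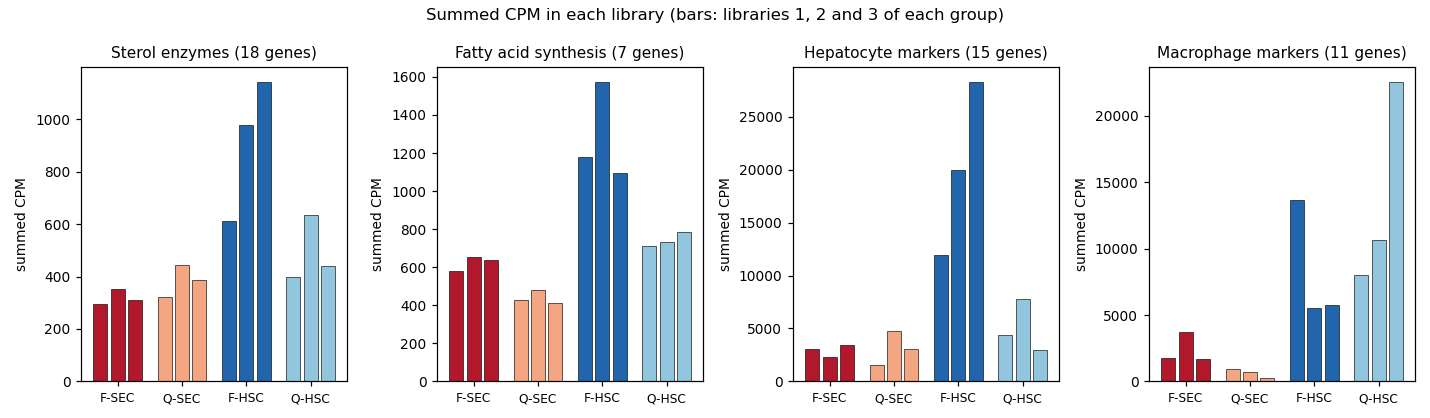
Summed CPM (vertical axes, linear from 0) of the 18 sterol enzymes, the 7 fatty acid synthesis genes, 15 hepatocyte markers and 11 macrophage markers, 1 bar per library, with groups F-SEC, Q-SEC, F-HSC and Q-HSC along each horizontal axis. Sterol enzymes reached 977 CPM in F-HSC.2 and 1140 CPM in F-HSC.3, where hepatocyte markers summed to 19950 and 28230 CPM.

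Summed markers of hepatocytes were also higher in every F-HSC library than in any Q-HSC library. The 15 hepatocyte markers summed to 11920, 19950 and 28230 CPM in F-HSC, against 4409, 7822 and 2956 CPM in Q-HSC, and to 2264 to 3447 CPM in F-SEC, against 1539 to 4782 CPM in Q-SEC. Albumin (Alb) measured 7062, 11680 and 15860 CPM in F-HSC, against 2047, 3271 and 1200 CPM in Q-HSC. No marker of the list was at 0 in all libraries of any group. The order of the F-HSC libraries by hepatocyte markers was the order by sterol enzymes, and Q-HSC.2 and Q-SEC.2 led their groups in both. By contrast, F-SEC.2 led its group in sterol enzymes and was lowest in hepatocyte markers. Q-HSC.1 and Q-HSC.3 changed places between these orders. Fatty acid synthesis sums did not follow hepatocyte markers within the HSC groups. F-HSC.3 had the highest hepatocyte sum and the lowest fatty acid sum of its group (1093 CPM). Q-HSC.3 had the lowest hepatocyte sum and the highest fatty acid sum of its group (786 CPM). Of the 15 hepatocyte markers, 5 were called higher and 1 lower in F-HSC than in Q-HSC, and 14 were called lower in F-SEC than in F-HSC. The 11 Kupffer cell and macrophage markers did not follow the hepatocyte order, with 13620, 5543 and 5729 CPM in F-HSC, against 7988, 10680 and 22500 CPM in Q-HSC. The 9 markers of monocytes and scar-associated macrophages summed to 10990, 1664 and 3676 CPM in F-HSC, against 294, 676 and 537 CPM in Q-HSC, with 5 called higher. The 5 bile duct markers summed to 1571, 729 and 1957 CPM in F-HSC, against 89.3, 350.5 and 154 CPM in Q-HSC. Most of that was Spp1, which is in both lists. Of the endothelial markers 10 of 12 were called lower. The 9 myofibroblast markers summed to 10410, 4223 and 10680 CPM in F-HSC, against 719, 211.5 and 134 CPM in Q-HSC, and 8 of them were called higher in F-HSC. The part of transcripts from hepatocytes, macrophages, bile duct cells, endothelium and myofibroblasts in the results below was not tested. In bulk libraries, fewer cells of a type and less RNA per cell cannot be told apart.

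The comparison of F-HSC with Q-HSC asked what CCl4 changed in the HSC fraction, whose mix of cells also differed between the groups. Of the 29 genes, 16 were higher and 0 lower, where 14.7% of all tested genes were called higher and 17.6% lower. Among the sterol enzymes 11 of 18 were higher, 2 of 7 in the mevalonate arm and 9 of 11 between squalene and cholesterol. The median log2 change of the 18 was 0.82, against -0.02 over all tested genes. Of the fatty acid synthesis genes 5 of 7 were higher, and of the regulators and carrier 0 of 4. The groups did not overlap, F-HSC being higher, for 12 of the 29 genes, against 20.7% of all tested genes. Left-out libraries moved the count of 16, to 8 without F-HSC.3, 8 without Q-HSC.3 and 21 without F-HSC.1, and with the 8 libraries numbered 2 and 3 alone it came to 21. The calls over all tested genes moved in the same directions. Genes called higher numbered 2127 of 14489 with all 12 libraries, 1231 of 14740 without F-HSC.3 and 1451 of 14772 without Q-HSC.3. They numbered 2389 of 14730 without F-HSC.1 and 3248 of 14585 with libraries 2 and 3 alone.

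**Figure D2:**
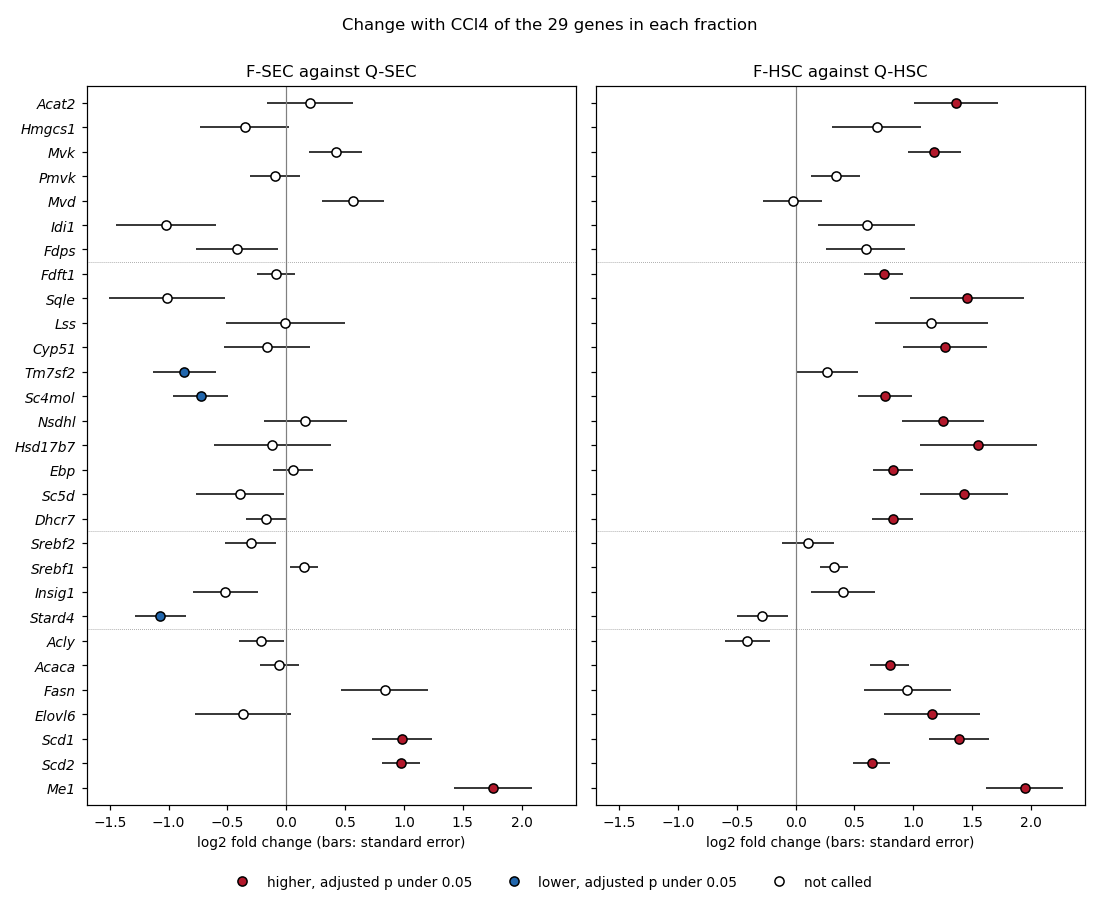
Log2 fold change with CCl4 (horizontal axis, bars are SE) of each of the 29 genes, in the SEC fraction on the left and the HSC fraction on the right, with dotted lines between the role groups. Filled points are called genes, 3 with F-SEC higher, 3 with F-SEC lower and 16 with F-HSC higher.

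In the mevalonate arm, Acat2, the cytosolic thiolase that joins acetyl-CoA units, measured 10.5, 21.0 and 33.4 CPM in F-HSC, against 9.39, 9.46 and 6.26 CPM in Q-HSC. Each F-HSC library lay above each Q-HSC library. The change was 1.36 ± 0.35 (adjusted p = 0.015). Mvk, mevalonate kinase, measured 15.2, 18.8 and 24.8 CPM in F-HSC, against 8.80, 7.72 and 9.39 CPM in Q-HSC, again without overlap, a rise of 1.18 ± 0.23 (adjusted p = 0.0041). Hmgcs1 (chr13:119690462-119708077, mm10, plus strand), the synthase of HMG-CoA and the member of the arm with the highest mean RPKM (21.4 over the 12 libraries), did not pass the test. Its levels were 78.2, 177.7 and 191 CPM in F-HSC, against 66.0, 129 and 81.7 CPM in Q-HSC, so F-HSC.1 fell inside the Q-HSC range (0.69 ± 0.38, adjusted p = 0.18). Without F-HSC.1 its change was 1.05 (adjusted p = 0.036).

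Idi1, which isomerises isopentenyl diphosphate, had a wide spread at 29.6, 81.1 and 105.9 CPM in F-HSC, against 33.9, 62.9 and 45.7 CPM in Q-HSC. Fdps, farnesyl diphosphate synthase, measured 36.2, 62.7 and 68.1 CPM in F-HSC, against 28.3, 54.6 and 27.7 CPM in Q-HSC. Neither was called (0.60 ± 0.41 and 0.59 ± 0.34), and in both the F-HSC range took in the highest Q-HSC library. Mvd, which decarboxylates mevalonate diphosphate, stood level at 11.2, 14.3 and 10.3 CPM in F-HSC, against 7.83, 13.7 and 15.0 CPM in Q-HSC (-0.03 ± 0.25). Pmvk, the kinase between Mvk and Mvd, ran from 11.7 to 14.7 CPM in F-HSC, against 8.72 to 12.1 CPM in Q-HSC (0.34 ± 0.21, not called). Deposited counts may be shared between transcripts with identical stretches. Fdps is the most exposed, since 86.4% of its 50-base stretches also occur in other annotated transcripts. Among these is Gm43738, which overlaps Fdps exons on the same strand. The share was 45.9% for Acat2, 21.3% for Idi1 and 0% for Hmgcs1, Mvk, Pmvk and Mvd. How the authors' counting dealt with shared stretches is not given in the sources used here. Hmgcs1 and Idi1 also overlap exons of opposite-strand transcripts, Gm48342 and Gm48574.

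**Figure D3:**
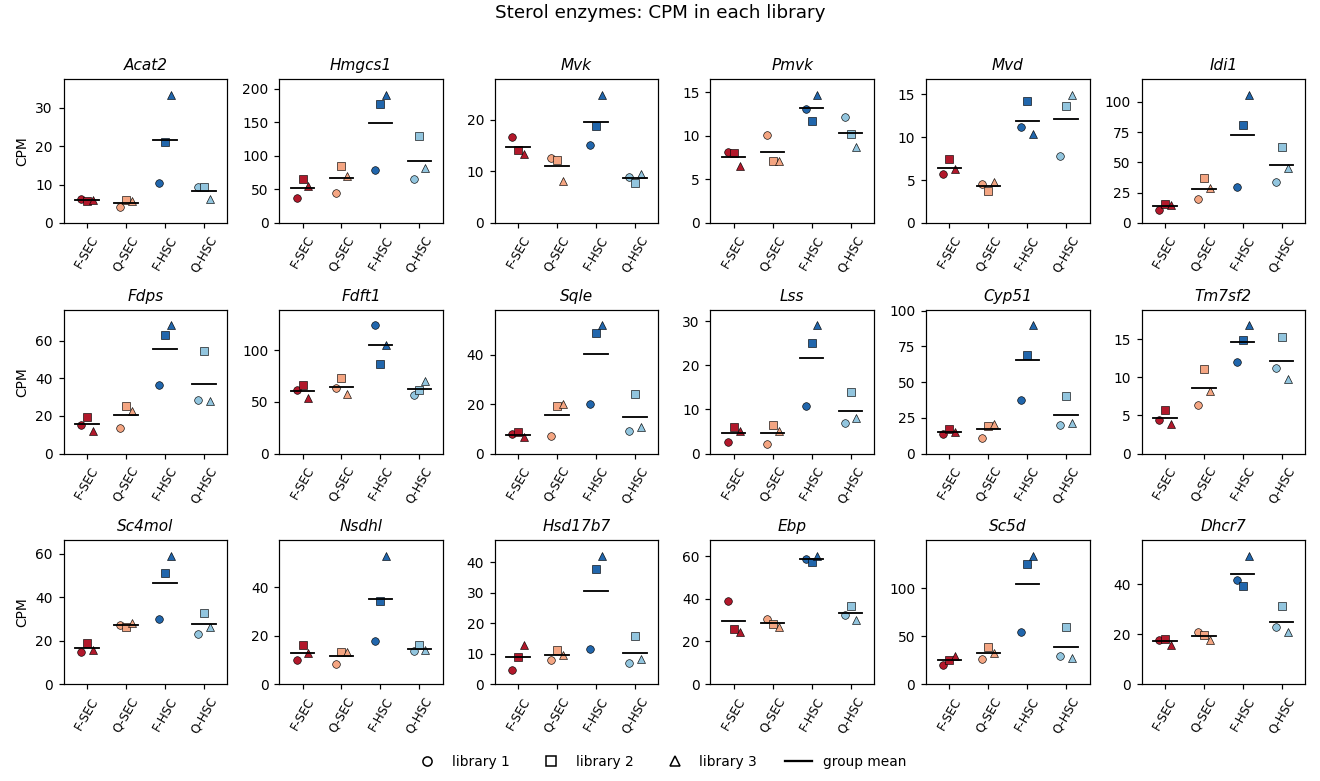
CPM (vertical axes, linear from 0, a separate scale per gene) of the 18 sterol enzymes in each library, with F-SEC, Q-SEC, F-HSC and Q-HSC on the horizontal axes, a marker shape per library number and a bar at the group mean. In Ebp the 3 F-HSC libraries lay between 57.1 and 60.1 CPM, above all 9 other libraries, while in Idi1 they spread from 29.6 to 105.9 CPM.

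Between squalene and cholesterol the calls were denser. Fdft1, squalene synthase, had the highest mean RPKM of these 11 genes (20.1) and measured 124, 86.3 and 105 CPM in F-HSC, against 56.2, 61.8 and 70.1 CPM in Q-HSC. Ebp, the sterol isomerase, measured 58.8, 57.1 and 60.1 CPM in F-HSC, against 32.5, 36.6 and 30.2 CPM in Q-HSC. Dhcr7, a reductase of the last steps, measured 41.7, 39.3 and 51.4 CPM in F-HSC, against 22.8, 31.2 and 20.8 CPM in Q-HSC. In these 3 genes the lowest F-HSC library lay above the highest Q-HSC library, and their changes were alike in size at 0.75 ± 0.16, 0.83 ± 0.17 and 0.82 ± 0.17 (adjusted p = 0.0071, 0.0056 and 0.0059). They kept their calls without any single library. Fdft1 shares exon sequence with Ctsb on the opposite strand, and whether the counting used strand is not given in the sources used here.

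Sqle, squalene epoxidase, measured 19.96, 48.8 and 51.9 CPM in F-HSC, against 9.10, 24.1 and 10.7 CPM in Q-HSC (1.45 ± 0.48, adjusted p = 0.041). Cyp51, the lanosterol demethylase, measured 37.5, 69.2 and 89.9 CPM in F-HSC, against 20.1, 40.0 and 21.6 CPM in Q-HSC (1.27 ± 0.36, adjusted p = 0.021). In both, F-HSC.1 was below Q-HSC.2 while the other F-HSC libraries were above every Q-HSC library. Sc5d, a sterol desaturase, followed the same order at 53.8, 125 and 133.5 CPM in F-HSC, against 29.4, 59.3 and 27.1 CPM in Q-HSC (1.43 ± 0.38, adjusted p = 0.016). Hsd17b7, a ketosteroid reductase of the demethylation complex, measured 11.7, 37.8 and 42.1 CPM in F-HSC, against 6.85, 15.9 and 8.39 CPM in Q-HSC. Its change of 1.55 ± 0.50 (adjusted p = 0.035) was the largest of the 18 sterol enzymes. F-HSC.1 again lay below Q-HSC.2.

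Nsdhl, the dehydrogenase of the same complex, was free of overlap at 17.98, 34.3 and 52.9 CPM in F-HSC, against 13.6, 16.3 and 14.1 CPM in Q-HSC (1.25 ± 0.35, adjusted p = 0.020). Sc4mol, its methyl sterol oxidase, measured 29.9, 50.9 and 59.0 CPM in F-HSC, against 23.3, 33.0 and 26.3 CPM in Q-HSC (0.76 ± 0.23, adjusted p = 0.027). The 2 genes of the stretch that were not called were Lss and Tm7sf2. Lss, lanosterol synthase, measured 10.7, 25.1 and 29.1 CPM in F-HSC, against 6.95, 14.0 and 8.16 CPM in Q-HSC (1.15 ± 0.48, adjusted p = 0.088, and 0.028 without F-HSC.1). Tm7sf2, a sterol reductase, measured 12.0, 14.9 and 16.8 CPM in F-HSC, against 11.3, 15.2 and 9.73 CPM in Q-HSC (0.27 ± 0.26). Cyp51 shares exon sequence with Akap9 on the opposite strand and Lss with 4930483K19Rik on the opposite strand. Reads there cannot be told apart if the counting did not use strand, which is not given. Tm7sf2 shares exon sequence with Vps51 on its own strand, so reads there cannot be told apart.

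Leaving out single libraries showed which of these sterol calls were fragile. Those for Acat2, Nsdhl and Sc5d ended without F-HSC.3 (adjusted p = 0.070, 0.090 and 0.062) or Q-HSC.3 (0.054, 0.055 and 0.055). That for Cyp51 ended without F-HSC.3 (0.089), Q-HSC.1 (0.063) or Q-HSC.3 (0.070). Those for Sqle, Sc4mol and Hsd17b7 ended without F-HSC.2 (0.095, 0.063 and 0.083), F-HSC.3 (0.13, 0.11 and 0.12), Q-HSC.1 (0.11, 0.070 and 0.095) or Q-HSC.3 (0.12, 0.069 and 0.0995). Over the 18 enzymes there were 4 calls without F-HSC.3, 4 without Q-HSC.3, 7 without Q-HSC.1, 8 without F-HSC.2, 12 without Q-HSC.2 and 14 without F-HSC.1, all of them higher in F-HSC. In the same order, 1231, 1451, 1935, 1847, 1637 and 2389 of all tested genes (14658 to 14772) were called higher.

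RefSeq promoter windows, from 250 bases before to 50 bases after an annotated start (build GRCm38.p6, the assembly of mm10), were found for 23 of the 29 genes, in 29 windows. Windows were not matched for Fdps, Fdft1, Sqle, Stard4, Scd1 and Scd2. They were searched on both strands for the sterol regulatory element TCACNCCAC, the NF-Y box CCAAT and the GC box GGGCGG. TCACNCCAC occurred in 1 of the 23 genes, Hmgcs1, and in 1.24% of all 32851 windows. CCAAT occurred in 20 of the 23 genes and in 21 of their 29 windows (72.4%), against 37.4% of all windows. GGGCGG occurred in 19 of the 23 genes and also in 21 of the 29 windows (72.4%), against 35.7%. A shorter form chosen after these results were seen, TCACCNCA, occurred in 4 of the 23, Hmgcs1, Cyp51, Hsd17b7 and Srebf2, and in 4.42% of all windows, and in Hmgcs1 it overlaps the longer element. A match is a run of letters and not a shown binding site. 4 windows are printed 5′ to 3′ on the strand of the gene, because Hmgcs1 is the gene with the sterol element, Cyp51 and Hsd17b7 are the other enzymes with the shorter form, and Idi1 has the strongest fraction difference of the mevalonate arm below. Capitals mark the sterol element, its shorter form and the NF-Y box, read on either strand. In Hmgcs1 (chr13:119690101-119690400, plus strand) the sterol element begins 137 bases before the start. In Cyp51 (chr5:4104648-4104947, minus strand) and Hsd17b7 (chr1:169969156-169969455, minus strand) the shorter form begins 88 and 117 bases before it. The Idi1 window (chr13:8885356-8885655, plus strand) holds CCAAT matches at 45 and 14 bases before the start and no sterol element match.
Hmgcs1: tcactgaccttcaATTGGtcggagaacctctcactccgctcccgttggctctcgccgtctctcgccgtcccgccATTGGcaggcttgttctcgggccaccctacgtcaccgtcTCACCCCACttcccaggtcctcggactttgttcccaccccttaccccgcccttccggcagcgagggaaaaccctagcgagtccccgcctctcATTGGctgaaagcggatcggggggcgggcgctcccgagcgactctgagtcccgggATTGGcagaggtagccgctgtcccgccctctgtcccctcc
Cyp51: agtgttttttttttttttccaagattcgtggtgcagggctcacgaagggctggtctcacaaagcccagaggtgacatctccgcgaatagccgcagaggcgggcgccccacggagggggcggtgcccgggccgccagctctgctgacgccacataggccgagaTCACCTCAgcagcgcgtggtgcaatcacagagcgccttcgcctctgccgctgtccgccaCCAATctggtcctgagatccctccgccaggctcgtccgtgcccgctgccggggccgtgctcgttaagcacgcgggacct
Hsd17b7: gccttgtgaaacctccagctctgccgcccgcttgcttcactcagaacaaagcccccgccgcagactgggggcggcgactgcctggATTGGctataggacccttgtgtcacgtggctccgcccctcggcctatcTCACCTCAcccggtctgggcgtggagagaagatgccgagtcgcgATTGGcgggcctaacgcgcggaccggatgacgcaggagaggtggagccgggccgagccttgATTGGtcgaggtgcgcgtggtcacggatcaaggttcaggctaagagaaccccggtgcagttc
Idi1: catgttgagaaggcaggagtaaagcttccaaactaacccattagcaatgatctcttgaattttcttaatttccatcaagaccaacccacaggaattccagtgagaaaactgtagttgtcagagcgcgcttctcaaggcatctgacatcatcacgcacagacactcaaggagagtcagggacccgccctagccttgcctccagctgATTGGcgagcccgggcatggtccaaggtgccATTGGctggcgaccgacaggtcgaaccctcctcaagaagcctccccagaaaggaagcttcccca

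The regulators moved little with CCl4 in the HSC fraction. Srebf1, the gene of the SREBP that favours fatty acid synthesis, overlaps exons of Rai1 on the opposite strand and ran from 88.9 to 105.8 CPM in F-HSC, against 75.1 to 83.0 CPM in Q-HSC. These ranges did not overlap, but the change of 0.33 ± 0.12 fell just short of the threshold (adjusted p = 0.054). Srebf2, the gene of the SREBP that favours sterol synthesis, ran from 84.1 to 113.8 CPM in F-HSC, against 75.0 to 105 CPM in Q-HSC (0.11 ± 0.22). Insig1, which holds SREBPs back and has the highest mean RPKM of these 4 genes (19.0), measured 57.0, 120.0 and 81.1 CPM in F-HSC, against 67.6, 70.4 and 56.7 CPM in Q-HSC (0.41 ± 0.27, not called). Stard4, a cytosolic sterol carrier, measured 23.9, 36.6 and 33.4 CPM in F-HSC, against 50.3, 34.9 and 28.9 CPM in Q-HSC (-0.28 ± 0.22, not called). The transcript levels of the SREBP genes thus had smaller changes than most of the enzymes, although SREBP activity is set by cleavage, which these data do not measure.

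**Figure D4:**
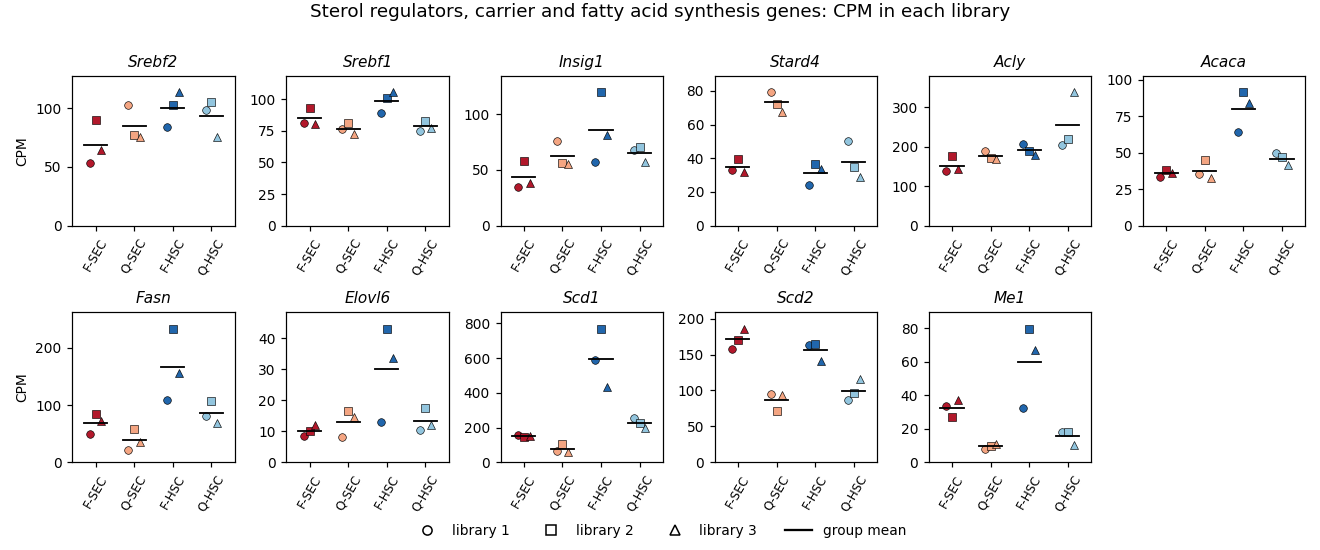
CPM (vertical axes, linear from 0, a separate scale per gene) of the 4 sterol regulators and carrier and the 7 fatty acid synthesis genes in each library, with F-SEC, Q-SEC, F-HSC and Q-HSC on the horizontal axes, a marker shape per library number and a bar at the group mean. Me1 and Scd2 stood higher in the CCl4 libraries of both fractions, and Stard4 stood highest in Q-SEC at 67.6 to 79.4 CPM.

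Fatty acid synthesis in the HSC fraction was led by Me1, malic enzyme, a source of NADPH. Me1 measured 32.5, 79.9 and 67.4 CPM in F-HSC, against 18.2, 18.1 and 10.3 CPM in Q-HSC, a rise of 1.95 ± 0.33 (adjusted p = 0.0023). Scd1, the main stearoyl-CoA desaturase of liver, lies at chr19:44394450-44407709 (mm10, minus strand), had the highest mean RPKM of the 29 genes (43.9) and measured 591, 771 and 432 CPM in F-HSC, against 258, 228 and 199 CPM in Q-HSC. It rose by 1.39 ± 0.26 (adjusted p = 0.0034). Acaca, the carboxylase that commits acetyl-CoA to fatty acids, measured 64.2, 91.7 and 84.2 CPM in F-HSC, against 49.6, 46.9 and 41.5 CPM in Q-HSC (0.80 ± 0.17, adjusted p = 0.0058). Scd2, a second stearoyl-CoA desaturase, measured 163.5, 164 and 140.4 CPM in F-HSC, against 86.4, 97.0 and 115 CPM in Q-HSC (0.65 ± 0.16, adjusted p = 0.011). In none of these 4 genes did the groups overlap, and each kept its call without any single library. Elovl6 and Me1 overlap exons of opposite-strand transcripts, Gm35986 and A330041J22Rik. Acaca shares 52.6% and Me1 26.5% of their 50-base stretches with other annotated transcripts, and Scd1 and Scd2 share under 5% each.

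Elovl6, an elongase of saturated fatty acids, measured 13.03, 43.1 and 33.6 CPM in F-HSC, against 10.4, 17.6 and 12.2 CPM in Q-HSC. F-HSC.1 lay inside the Q-HSC range, and the change of 1.16 ± 0.41 only just passed the test (adjusted p = 0.0499). The call ended without any 1 of F-HSC.2 (0.16), F-HSC.3 (0.13), Q-HSC.1 (0.12), Q-HSC.2 (0.051) or Q-HSC.3 (0.12). Fasn, fatty acid synthase, measured 108, 233 and 156 CPM in F-HSC, against 81.6, 107.6 and 68.8 CPM in Q-HSC. These did not overlap, by a margin of under 1 CPM, and the change of 0.95 ± 0.37 was not called (adjusted p = 0.071, and 0.032 without F-HSC.1). Acly, which supplies cytosolic acetyl-CoA, ran from 180 to 208 CPM in F-HSC, against 205 to 339 CPM in Q-HSC (-0.41 ± 0.19, adjusted p = 0.12), the opposite sign to the other genes of fatty acid synthesis.

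In the SEC fraction the same question was put to F-SEC and Q-SEC. Of the 29 genes 3 were higher, where 11.8% of all tested genes were called higher, and 3 were lower, where 12.1% were called lower, so the counts lay close to the background. None of the 18 sterol enzymes was higher and 2 were lower, with a median log2 change of -0.14 (-0.05 over all tested genes), while 3 of 7 fatty acid synthesis genes were higher. The groups did not overlap for 5 genes with F-SEC higher and 4 with F-SEC lower, against 19.7% and 24% of all tested genes. With the library number as a block there were 4 higher and 4 lower, the additions being Fasn and Idi1. Over all 14489 tested genes the block gave 2076 higher and 2255 lower. In this fraction the myofibroblast markers summed to 9664 to 25490 CPM in F-SEC, against 50.1 to 449.5 CPM in Q-SEC, and macrophage markers to 1700 to 3702 CPM in F-SEC, against 283 to 973 CPM in Q-SEC, while the sums for hepatocyte markers overlapped. Endothelial markers summed to 10080 to 13960 CPM in F-SEC, against 28740 to 33190 CPM in Q-SEC, with 9 of 12 called lower. Stellate markers summed to 4360 to 7730 CPM in F-SEC, against 295 to 4444 CPM in Q-SEC, and overlapped through Q-SEC.1. The part of these cells in the changes was not tested.

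The 3 genes that rose all serve fatty acid synthesis. Me1 measured 33.5, 26.9 and 37.5 CPM in F-SEC, against 8.29, 9.62 and 11.01 CPM in Q-SEC, a rise of 1.76 ± 0.33 (adjusted p = 0.0051). Scd2 measured 157, 170.5 and 186 CPM in F-SEC, against 95.5, 72.2 and 93.7 CPM in Q-SEC, a rise of 0.97 ± 0.16 (adjusted p = 0.0027). Scd1 measured 157, 149 and 155 CPM in F-SEC, against 67.3, 107 and 58.5 CPM in Q-SEC (0.98 ± 0.25, adjusted p = 0.019). In each, every F-SEC library exceeded every Q-SEC library. The Scd1 call ended without F-SEC.1 (0.0501), Q-SEC.1 (0.055) or Q-SEC.3 (0.080). On the RPKM scale, which allows for length, the desaturases were nearly level in F-SEC (25.3 for Scd2 and 25.5 for Scd1), whereas in F-HSC Scd2 averaged 23.0 and Scd1 100.1.

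Fasn measured 49.6, 85.0 and 71.4 CPM in F-SEC, against 22.1, 58.3 and 35.1 CPM in Q-SEC. The highest Q-SEC library exceeded the lowest F-SEC library, and the change of 0.83 ± 0.37 was not called (adjusted p = 0.12) except with the block (0.90, adjusted p = 0.010). Elovl6 measured 8.54, 9.97 and 12.0 CPM in F-SEC, against 8.08, 16.5 and 14.7 CPM in Q-SEC (-0.37 ± 0.41). Acaca measured 33.6, 38.2 and 36.1 CPM in F-SEC, against 35.2, 45.0 and 32.4 CPM in Q-SEC (-0.06 ± 0.17). Neither was called, and both ranges overlapped. Acly ran from 138 to 176 CPM in F-SEC, against 168 to 190.0 CPM in Q-SEC (-0.21 ± 0.19, not called).

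The 3 genes called lower in F-SEC were a sterol carrier, Stard4, and 2 of the 18 sterol enzymes. For the enzymes this share lay near the 12.1% of all tested genes called lower. Stard4 measured 32.8, 39.8 and 31.7 CPM in F-SEC, against 79.4, 72.3 and 67.6 CPM in Q-SEC, which left a wide gap between the groups. It fell by 1.07 ± 0.22 on the log2 scale (adjusted p = 0.0068) and kept this call without any single library. Sc4mol measured 15.0, 18.8 and 15.7 CPM in F-SEC, against 27.3, 26.5 and 28.2 CPM in Q-SEC (-0.73 ± 0.23, adjusted p = 0.042). Tm7sf2 measured 4.44, 5.71 and 3.92 CPM in F-SEC, against 6.38, 11.1 and 8.202 CPM in Q-SEC (-0.87 ± 0.27, adjusted p = 0.039). Neither pair of ranges overlapped. Tm7sf2 was no longer called with F-SEC.1 omitted (0.11), nor with F-SEC.3 (0.16), Q-SEC.2 (0.15) or Q-SEC.3 omitted (0.085), and Sc4mol was not called without any of these (0.12, 0.15, 0.089 and 0.11) or Q-SEC.1 (0.073). Sc4mol and Tm7sf2 also missed the threshold with no filter, with limma-voom and without Rn45s and Lars2.

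Idi1 and Sqle had larger and less even values. Idi1 measured 10.8, 15.9 and 15.2 CPM in F-SEC, against 19.4, 36.9 and 28.7 CPM in Q-SEC, without overlap (-1.02 ± 0.42, adjusted p = 0.10, and -0.99 with the block, adjusted p = 0.021). Sqle measured 7.75, 8.52 and 6.71 CPM in F-SEC, against 7.02, 19.4 and 20.1 CPM in Q-SEC (-1.01 ± 0.49, adjusted p = 0.16). Here Q-SEC.1 lay among the F-SEC libraries. The other sterol enzymes had log2 changes from -0.42 in Fdps to 0.57 in Mvd, and none of them was called.

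Several of these were level between the groups. Cyp51 measured 13.9, 17.0 and 15.0 CPM in F-SEC, against 11.2, 19.6 and 20.7 CPM in Q-SEC. Ebp measured 38.8, 25.8 and 24.6 CPM in F-SEC, against 30.7, 28.0 and 27.0 CPM in Q-SEC. Dhcr7 measured 17.7, 18.2 and 15.9 CPM in F-SEC, against 20.8, 19.7 and 17.8 CPM in Q-SEC. In all 3 the groups overlapped. Lss, at 2.61, 6.10 and 5.06 CPM in F-SEC, against 2.13, 6.59 and 5.07 CPM in Q-SEC, was the nearest to no change (-0.01 ± 0.51). Mvd and Mvk were the only sterol enzymes with every F-SEC library above every Q-SEC library. Mvd measured 5.66, 7.46 and 6.30 CPM in F-SEC, against 4.57, 3.77 and 4.75 CPM in Q-SEC (0.57 ± 0.27, adjusted p = 0.14). Mvk measured 16.6, 14.0 and 13.3 CPM in F-SEC, against 12.6, 12.1 and 8.09 CPM in Q-SEC (0.42 ± 0.23, adjusted p = 0.19).

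Fdft1 measured 61.8, 66.6 and 53.4 CPM in F-SEC, against 62.9, 72.7 and 57.9 CPM in Q-SEC. Hmgcs1 measured 36.6, 64.7 and 54.6 CPM in F-SEC, against 44.7, 84.9 and 69.3 CPM in Q-SEC. Both overlapped between groups, as did Insig1 at 34.6, 57.6 and 38.0 CPM in F-SEC, against 75.5, 56.0 and 54.9 CPM in Q-SEC (-0.52 ± 0.27, adjusted p = 0.19). Srebf1 ran from 80.2 to 92.9 CPM in F-SEC, against 72.2 to 81.0 CPM in Q-SEC, and Srebf2 from 52.9 to 89.5 CPM in F-SEC, against 75.3 to 102.6 CPM in Q-SEC. Neither was called, and Pmvk ran from 6.50 to 8.19 CPM in F-SEC, against 7.11 to 10.1 CPM in Q-SEC.

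Whether CCl4 changed the fractions differently was tested as the change in SEC minus the change in HSC. By edgeR 0 of the 29 genes was called, where 0.801% of all tested genes were, 0.566% upward and 0.235% downward. At an unadjusted p under 0.05 there were 17, all negative, 13 of them sterol enzymes, where 17.7% of all tested genes passed in either direction. The median difference over the 18 sterol enzymes was -1.11 (0.02 over all tested genes). Hepatocyte markers moved the same way, with 14 of 15 negative, 7 at an unadjusted p under 0.05, 0 called and a median of -1.55, and their part in the difference was not tested. Sc4mol, which fell in F-SEC and rose in F-HSC, had the lowest adjusted p at 0.066, with a difference of -1.49 ± 0.32. Dhcr7 (-0.99 ± 0.25), Acaca (-0.86 ± 0.24), Fdft1 (-0.84 ± 0.23) and Sqle (-2.47 ± 0.69) followed with adjusted p = 0.080, 0.10, 0.10 and 0.11. For Scd2, Me1 and Fasn the differences were 0.33 ± 0.22, -0.19 ± 0.45 and -0.11 ± 0.52, with adjusted p = 0.47, 0.87 and 0.93. The count of calls depended on tool and libraries. It was 6 with DESeq2 (Fdft1, Sqle, Sc4mol, Sc5d, Dhcr7 and Acaca), 0 with limma-voom, 11 with libraries 2 and 3 alone, 7 without F-HSC.1, 1 without F-SEC.1 (Ebp) and 1 without Q-SEC.1 (Sqle), all negative. The calls over all tested genes moved as well. They numbered 911 of 14489 with DESeq2, 25 of 14489 with limma-voom and 1712 of 14585 with libraries 2 and 3 alone. Without F-HSC.1 they numbered 743 of 14730, without F-SEC.1 75 of 14721 and without Q-SEC.1 390 of 14740.

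The fractions of fibrotic liver were compared as F-SEC against F-HSC. Of the 29 genes 22 were lower in F-SEC and 0 higher, where 12.8% of all tested genes were called lower and 12.6% higher. Among the sterol enzymes 17 of 18 were lower, all but Mvk, with a median log2 difference of -1.57 (0.01 over all tested genes). The groups did not overlap for 21 of the 29 genes and 16 of the 18 enzymes, all with F-SEC lower, against 19.2% of all tested genes. Of the hepatocyte markers 14 of 15 were lower as well, and their part was not tested.

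**Figure D5:**
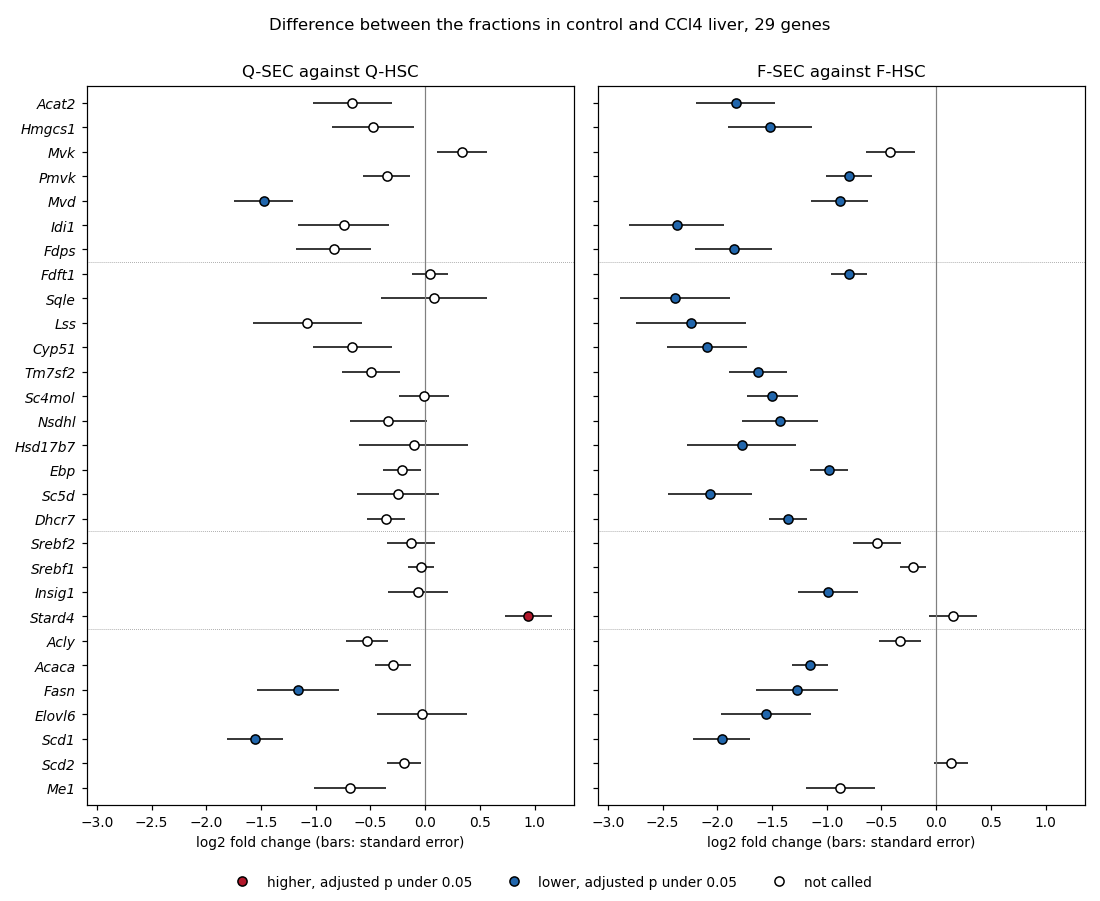
Log2 difference (horizontal axis, bars are SE) of each of the 29 genes between the SEC and HSC fractions, in control liver on the left and CCl4 liver on the right, with dotted lines between the role groups. Filled points are called genes, 1 with Q-SEC higher, 3 with Q-SEC lower and 22 with F-SEC lower.

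The largest differences were in Sqle (-2.39 ± 0.50), Idi1 (-2.37 ± 0.43), Lss (-2.24 ± 0.50), Cyp51 (-2.10 ± 0.37) and Sc5d (-2.07 ± 0.38), with adjusted p from 0.0031 to 0.0091. In Idi1 the highest F-SEC library had 15.9 CPM, against 29.6 CPM in the lowest F-HSC library. In Sc5d, which measured 19.5, 25.6 and 29.4 CPM in F-SEC, the lowest F-HSC library had 53.8 CPM. Acat2 (6.36, 5.71 and 6.09 CPM in F-SEC), Fdps (15.0, 19.4 and 12.0 CPM) and Scd1 came next, at -1.83 ± 0.36, -1.85 ± 0.35 and -1.96 ± 0.26 (adjusted p = 0.0047, 0.0042 and 0.0010). All of these genes were separated between the groups. Hsd17b7 (4.79, 9.004 and 12.9 CPM in F-SEC) was the 1 called sterol enzyme with overlap, through F-HSC.1 at 11.7 CPM (-1.78 ± 0.50, adjusted p = 0.025).

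Tm7sf2, Hmgcs1, Sc4mol, Nsdhl (9.75, 16.3 and 13 CPM in F-SEC) and Dhcr7 had differences from -1.63 to -1.35, and in fatty acid synthesis Elovl6, Fasn and Acaca had -1.56 ± 0.41, -1.27 ± 0.37 and -1.15 ± 0.17. Ebp (-0.98), Insig1 (-0.99), Mvd (-0.88), Fdft1 (-0.80) and Pmvk (-0.79) were called with a smaller difference. Scd2 (0.13 ± 0.16), Stard4 (0.15 ± 0.22), Srebf1 and Srebf2 (-0.22 ± 0.12 and -0.54 ± 0.22), Acly, Me1 and Mvk were not called. Of the 22 calls 14 held without any single library. The others, Hmgcs1, Pmvk, Mvd, Nsdhl, Hsd17b7, Insig1, Fasn and Elovl6, ended with adjusted p from 0.053 to 0.11. F-SEC.1 ended 7 of these, F-HSC.3 6, F-HSC.2 5, F-SEC.3 4, F-SEC.2 2 and F-HSC.1 0, and without F-HSC.2 the difference in Insig1 was -0.66.

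The fractions of control liver were compared as Q-SEC against Q-HSC, and whether the fraction difference changed with CCl4 is the test of the difference given above. Q-SEC was lower than Q-HSC for 3 of the 29, where 14.3% of all tested genes were called lower, and higher for 1, where 15.5% were called higher. Scd1 measured 67.3, 107 and 58.5 CPM in Q-SEC, against 258, 228 and 199 CPM in Q-HSC (-1.55 ± 0.26, adjusted p = 0.0014). Mvd measured 4.57, 3.77 and 4.75 CPM in Q-SEC, against 7.83, 13.7 and 15.0 CPM in Q-HSC (-1.48 ± 0.27, adjusted p = 0.0022), and Fasn differed by -1.16 ± 0.37 (adjusted p = 0.038). Stard4 was higher in Q-SEC, by 0.94 ± 0.22 (adjusted p = 0.0076). In these 4 genes the groups were apart, as they were for 8 genes in all with Q-SEC lower and 1 with Q-SEC higher, against 22.4% and 25% of all tested genes. The call for Fasn ended without Q-SEC.1 (0.11), Q-SEC.3 (0.11), Q-HSC.1 (0.058) or Q-HSC.2 (0.12), and the others held without any single library. None of the 11 enzymes between squalene and cholesterol was called. Their log2 differences ran from -1.08 in Lss to 0.08 in Sqle, and 9 of the 11 were negative. In the same comparison 11 of 11 Kupffer cell and macrophage markers were lower in Q-SEC, and the part of those cells was not tested.

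Within groups the sterol enzymes shared an order of libraries. F-HSC.3 was the highest F-HSC library for 16 of 18 and F-HSC.1 the lowest for 13. Q-HSC.2 was highest in its group for 14, F-SEC.2 for 12 and Q-SEC.2 for 10. The share of gene counts from Rn45s, the ribosomal RNA precursor, had its highest and lowest library in the same places in F-HSC, at 1.195, 7.62 and 12.6% (F-HSC.1 to F-HSC.3). It was also highest in the library numbered 2 of the other groups, at 5.12, 7.45 and 4.50% in F-SEC, 3.999, 9.60 and 5.43% in Q-SEC and 4.06, 10.6 and 5.89% in Q-HSC. Its part in the order was not tested, and without Rn45s and Lars2 in the libraries 11 sterol enzymes were called higher in F-HSC than in Q-HSC and 0 in either direction in F-SEC against Q-SEC. Of the 14491 genes then tested, 2300 were called higher in F-HSC, and 1915 higher and 1300 lower in F-SEC. F-HSC.1 also stood apart in the sum of monocyte and scar-associated macrophage markers, at 10990 CPM, against 1664 and 3676 CPM in the other F-HSC libraries. Of this, Gpnmb alone gave 6674 CPM, against 455 and 933 CPM. Trem2, Cd9, Lgals3 and Itgam were also highest in F-HSC.1. Spp1 and Ccr2 lay between the other F-HSC libraries, and Ly6c2 and Chi3l3 were lowest there. Every F-HSC library exceeded all 9 other libraries in 8 of the 29 genes (Acat2, Fdft1, Nsdhl, Ebp, Dhcr7, Acaca, Fasn and Scd1), against 7.19% of all tested genes.

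Neighbouring pathways were read from lists of other genes. Of 15 fatty acid oxidation genes, which break fatty acids down in mitochondria and peroxisomes, 14 were higher and 0 lower in F-HSC than in Q-HSC (median 1.003), 0 were called in either direction between F-SEC and Q-SEC (2 at an unadjusted p under 0.05, 0 with DESeq2 or limma-voom, 2 higher with only the 6 libraries compared and 1 higher with libraries 2 and 3 alone), and 15 were lower in F-SEC than in F-HSC. The shares over all tested genes were 14.7% higher and 17.6% lower in F-HSC, 11.8% and 12.1% in F-SEC against Q-SEC, and 12.8% lower in F-SEC against F-HSC, and the median over all genes in F-HSC was -0.02. Hadha and Hadhb encode the mitochondrial trifunctional protein. Hadha measured 263, 232 and 287 CPM in F-HSC, against 114, 126 and 122.5 CPM in Q-HSC (1.11 ± 0.13, adjusted p = 0.00070). Hadhb measured 141, 134 and 148 CPM in F-HSC, against 76.5, 75.5 and 72.9 CPM in Q-HSC (0.91 ± 0.12, adjusted p = 0.00099). Both were tight within groups and without overlap. Hadh and Acadvl, dehydrogenases of the same spiral, rose by 1.51 ± 0.22 and 1.31 ± 0.22 (adjusted p = 0.0013 and 0.0022). Breakdown genes and synthesis genes were thus both higher in F-HSC, beside the hepatocyte markers given above.

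Of 21 other genes of fatty acid and glycerolipid synthesis, 10 were higher and 0 lower in F-HSC than in Q-HSC (14.7% and 17.6% of all tested genes), and 1 was higher and 1 lower in F-SEC than in Q-SEC, below the 11.8% and 12.1% of all tested genes. Gpam, which starts glycerolipid synthesis, measured 45.3, 109.9 and 125 CPM in F-HSC, against 19.7, 17.5 and 14.3 CPM in Q-HSC, a rise of 2.44 ± 0.38 (adjusted p = 0.0018). Agpat2, the next acyltransferase, rose by 1.44 ± 0.25 (adjusted p = 0.0027), and Fads1, a fatty acid desaturase, by 0.57 ± 0.12 (adjusted p = 0.0054). Mid1ip1, which activates acetyl-CoA carboxylase, measured 36.8, 41.7 and 44.5 CPM in F-SEC, against 12.4, 17.4 and 20.1 CPM in Q-SEC. It rose by 1.30 ± 0.22 (adjusted p = 0.0031), with no overlap, and was not called in F-HSC (0.49 ± 0.21).

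Of 15 genes of SREBP activation, sterol sensing and export, 4 were higher and 1 lower in F-HSC than in Q-HSC (14.7% and 17.6% of all tested genes), and 1 was higher and 1 lower in F-SEC than in Q-SEC (11.8% and 12.1%), so that apart from the 4 higher the counts were below the background. Mylip, a ubiquitin ligase induced by the sterol receptor LXR, was the gene lower in both. It measured 293, 293 and 244 CPM in F-SEC, against 906, 819 and 763 CPM in Q-SEC (-1.58 ± 0.24, adjusted p = 0.0019), and 142, 109.7 and 84.9 CPM in F-HSC, against 469, 296 and 296 CPM in Q-HSC (-1.66 ± 0.24, adjusted p = 0.0013). Endothelial markers fell in the same comparisons, 9 of 12 in F-SEC and 10 of 12 in F-HSC. Npc1, which moves cholesterol out of lysosomes, measured 278, 209 and 198 CPM in F-HSC, against 81.2, 105.5 and 110.9 CPM in Q-HSC (1.203 ± 0.20, adjusted p = 0.0024). Nr1h3, which encodes LXRα, measured 33.4, 68.8 and 35.2 CPM in F-SEC, against 13.9, 11.7 and 8.31 CPM in Q-SEC (2.01 ± 0.41, adjusted p = 0.0069). The genes were separated between groups in each case.

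Nceh1, a cholesteryl ester hydrolase of macrophages, measured 301, 88.1 and 121 CPM in F-HSC, against 45.3, 59.9 and 88.3 CPM in Q-HSC (1.40 ± 0.40, adjusted p = 0.024). Without F-HSC.1 the change was smaller, at 0.75, and still called (adjusted p = 0.048), while the call ended without Q-HSC.1 (0.063) or Q-HSC.2 (0.060). F-HSC.1 also had the highest sum of monocyte and scar-associated macrophage markers of its group, and the part of those cells was not tested. Of 10 genes of the isoprenoid branch, which carries farnesyl units to prenylated proteins and dolichol, 1 was lower in F-SEC than in Q-SEC and 1 higher in F-HSC than in Q-HSC, near the 12.1% and 14.7% of all tested genes. Pggt1b, a subunit of a protein prenyltransferase, measured 20.7, 32.9 and 33.8 CPM in F-SEC, against 39.4, 54.6 and 54.1 CPM in Q-SEC (-0.76 ± 0.21, adjusted p = 0.026) and was no longer called with F-SEC.1 (0.076), with Q-SEC.2 (0.089) or with Q-SEC.3 (0.089) omitted. Dhdds, a subunit of the dolichol synthase, differed by 0.44 ± 0.14 in F-HSC (adjusted p = 0.031), and missed the threshold with F-HSC.1 (0.059), F-HSC.3 (0.067), Q-HSC.1 (0.051) or Q-HSC.2 (0.083) omitted.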

How the data were processed

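RNA was taken from the cells straight after isolation. Per the submitters' processing notes, the tools were bcl2fastq and TopHat2 2.0.13, with build mm10. The deposited table holds read counts per entry for 12 libraries, and RPKM that the authors scaled by the column total and entry length. The counter and its use of strand are not given in the sources used here. The table held 56826 lines, 1 of them empty and not analysed here. The 33353 cDNA clone entries, with 16.3 to 24.9% of all counts, were set aside, and 1.20 to 12.6% of gene counts were Rn45s.

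Tests used the 14489 genes left by the edgeR filter filterByExpr. Library sizes were adjusted by TMM (0.899 to 1.09), and edgeR 4.0.16 in R 4.3.3 gave robust quasi-likelihood tests from a model with 4 group means, which left 8 residual degrees of freedom at a common BCV of 0.28. It gave 5 tests, namely CCl4 against oil within each fraction, the difference of these changes (SEC minus HSC), and SEC against HSC within each treatment. P-values were adjusted by Benjamini-Hochberg over all tested genes. The model was tested on simulated data. No 2 libraries of a group were duplicates. RPKM was used only to compare levels between genes. The CPM that 3 counts stand for covers counting error only.

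Equal library numbers were checked by correlating deviations from group means across genes. Unnumbered titles were read as number 1. Same-numbered correlations passed 0.1 in every pair of F-SEC with Q-SEC (0.305, 0.248 and 0.159) and of F-SEC with F-HSC (0.468, 0.452 and 0.427), as a hint from the data. The control SEC and CCl4 HSC libraries, not compared directly, also passed (0.32, 0.136 and 0.215). At least 1 pair did not for F-HSC with Q-HSC, Q-SEC with Q-HSC or F-SEC with Q-HSC. Alternatives were DESeq2 1.42.0, voom in limma 3.58.1, RLE scaling, no filter, a filter at 10 CPM, an adjusted p under 0.01, a block for the library number, only the 6 libraries compared, only libraries 2 and 3, omission of Rn45s and Lars2, and omission of each library.

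Members and lists were chosen with earlier results of these data known. Values in every library are given for members called with CCl4, members called between fractions with a log2 difference of at least 1, and the member with the highest mean RPKM of each role. Of each pathway list, up to 4 genes called with CCl4 are named, lowest p first. Promoters came from RefSeq (GRCm38.p6), and overlaps and 50-base sharing from GENCODE annotation and transcripts of that assembly. The protein comparison planned for Scd1 with Scd2 and Srebf1 with Srebf2 was not run.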

Additional observations from a re-analysis of the deposited data

Results flagged for a closer look

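Hadhb, a subunit of the mitochondrial trifunctional protein and the only gene among the members and named pathway genes with a called difference, changed unequally with CCl4 in the fractions. The change in SEC minus the change in HSC was -0.95 ± 0.17 on the log2 scale (edgeR adjusted p = 0.037). It measured 86.0, 73.9 and 77.8 CPM in F-SEC, against 92.4, 73.3 and 79.1 CPM in Q-SEC, which overlapped. In F-HSC it was higher than in Q-HSC in 3 of 3 libraries. Under 21 alternatives the difference ran from -1.03 to -0.85, and 9 of them kept the call, with adjusted p up to 0.11. Omitting F-SEC.1, Q-SEC.1 or F-HSC.1 kept it, and omitting any other single library ended it. In the same test 14 of 15 hepatocyte markers were negative, with a median of -1.55, and their part was not tested.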

How the results depend on the processing

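Counts moved with the threshold, the tool and the libraries. At an adjusted p under 0.01, all called genes numbered 1262 with CCl4 in the SEC fraction, 1985 with CCl4 in the HSC fraction, 4 for the difference, 2399 between the control fractions and 1679 between the CCl4 fractions. The 29 genes then gave 2 higher (Me1 and Scd2) and 1 lower (Stard4) in F-SEC than in Q-SEC. They gave 7 higher in F-HSC than in Q-HSC and 14 lower in F-SEC than in F-HSC. Between the control fractions Scd1 and Mvd stayed lower in Q-SEC, and Stard4 higher. By direction, all called genes were 752 higher and 510 lower in F-SEC against Q-SEC, 902 higher in F-HSC and 777 lower in F-SEC against F-HSC, of 14489. Omitting 1 library at a time gave 1710 to 3179, 2612 to 4365, 3 to 743, 3032 to 4160 and 2445 to 3285 genes for the 5 tests in the same order. Of the 29 genes, these omissions gave 2 to 3 higher and 1 to 3 lower in F-SEC than in Q-SEC, 8 to 21 higher in F-HSC than in Q-HSC, 0 to 7 negative differences, 2 to 3 lower in Q-SEC than in Q-HSC and 15 to 23 lower in F-SEC than in F-HSC. No filter, limma-voom and omission of Rn45s and Lars2 each gave 1 lower in F-SEC than in Q-SEC and kept the 3 higher. With only the 6 libraries compared, 9 were higher in F-HSC than in Q-HSC, where 1749 of all 14042 tested genes were called higher. The difference had 911 called genes with DESeq2 (6 of the 29), 25 with limma-voom and 1712 with libraries 2 and 3 alone (11 of the 29), and those libraries gave 5 lower in Q-SEC than in Q-HSC. The causes were not tested.

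With the library number as a block, the difference had 183 called genes and 1 of the 29, Sc4mol (-1.48, adjusted p = 0.044). The block gave 20 higher in F-HSC than in Q-HSC and 6 lower in Q-SEC than in Q-HSC, comparisons in which equal numbers did not pass the pairing check. Over all 14489 tested genes it gave 2588 higher in the first and 2467 lower in the second. Where they passed, it added Fasn and Idi1 in F-SEC and changed no other call. Over single genes and alternatives, 2889 values kept their direction and side of the threshold, 97 passed it newly, 138 missed it and 83 changed sign. The lowest level of these genes in any library was 2.13 CPM, or 20 counts, for Lss in Q-SEC.1. The part of counting error in the spread was not tested, and 3 libraries per group limit the precision.

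The sign changed under some alternative in 26 of 187 single results, none of them called, with no adjusted p below 0.361 where it had changed. The causes were not tested. With 1 library omitted, the log2 values for F-SEC against Q-SEC ran from -0.19 to 0.090 in Pmvk, -0.16 to 0.070 in Fdft1, -0.35 to 0.34 in Lss, -0.032 to 0.33 in Nsdhl, -0.42 to 0.18 in Hsd17b7, -0.18 to 0.26 in Ebp, -0.54 to -0.14 in Srebf2, -0.16 to 0.089 in Acaca, -0.045 to 0.37 in Gpam, -0.18 to 0.11 in Agpat2 and -0.12 to 0.056 in Hadhb. With 1 library omitted, the log2 values for F-HSC against Q-HSC ran from -0.21 to 0.19 in Mvd and -0.41 to 0.020 in Stard4. With 1 library omitted, the log2 values for the difference ran from -0.034 to 0.35 in Acly, -0.39 to 0.32 in Fasn, -0.47 to 0.11 in Me1 and -0.16 to 0.29 in Mylip. With 1 library omitted, the log2 values for Q-SEC against Q-HSC ran from -0.050 to 0.12 in Fdft1, -0.19 to 0.63 in Sqle, -0.13 to 0.13 in Sc4mol, -0.35 to 0.33 in Hsd17b7, -0.47 to 0.19 in Sc5d, -0.083 to 0.0067 in Srebf1, -0.22 to 0.022 in Insig1 and -0.23 to 0.22 in Elovl6. In F-SEC against F-HSC the range was -0.015 to 0.30 in Stard4. For F-SEC against Q-SEC, Pmvk gave 0.083 with libraries 2 and 3 alone. Lss gave 0.036 with RLE scaling, 0.060 with no filter, 0.0049 with the 10 CPM filter, 0.038 with DESeq2, 0.032 with limma-voom, 0.034 with the block, 0.028 with the 6 libraries compared, 0.057 with Rn45s and Lars2 left out. Hsd17b7 gave 0.13 with libraries 2 and 3 alone. Ebp gave -0.077 with libraries 2 and 3 alone. Srebf2 gave 0.065 with libraries 2 and 3 alone. Acaca gave 0.012 with no filter, 0.0094 with Rn45s and Lars2 left out. Agpat2 gave 0.025 with no filter, 0.022 with Rn45s and Lars2 left out. Hadhb gave 0.0032 with RLE scaling, 0.032 with no filter, 0.0037 with DESeq2, 0.045 with libraries 2 and 3 alone, 0.029 with Rn45s and Lars2 left out. For F-HSC against Q-HSC, Mvd gave 0.030 with no filter, 0.036 with limma-voom, 0.033 with the 6 libraries compared, 0.024 with Rn45s and Lars2 left out. Stard4 gave 0.19 with libraries 2 and 3 alone. For the difference, Fasn gave 0.0026 with limma-voom, 0.019 with the block. For Q-SEC against Q-HSC, Fdft1 gave -0.014 with the 6 libraries compared, -0.031 with libraries 2 and 3 alone. Sc4mol gave 0.0082 with limma-voom, 0.010 with the block. Elovl6 gave 0.046 with libraries 2 and 3 alone.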
